A study of Homo sapiens with 9 samples.

Results

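In 786-O, a clear cell renal carcinoma line, a GFP antibody gave 3361 peaks in parental cells, which carry no GFP. Of these, 687 overlapped no peak in 786-O cells whose ZNF395 was tagged with eGFP and none in parental A498 cells. These lost peaks were chosen by peak calls alone, as every peak of the authors' parental 786-O list that overlapped, by 1 bp or more, neither a peak of the tagged 786-O list nor a peak of the parental A498 list. A498 is a second clear cell renal carcinoma line. The choice therefore used 3 of the 5 deposited lists, while the tagged A498 list and the list of a MYC precipitation in parental 786-O cells played no part in it. The other 2674 parental peaks fell into 1947 that were kept in tagged 786-O and absent from parental A498, 614 that were kept and also called in parental A498, and 113 that were not kept but called in parental A498. "Lost" means that no peak was called. A signal below the calling threshold would count as lost too.

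Chromatin immunoprecipitation followed by sequencing had been carried out with a GFP antibody in 786-O and A498 cells with an eGFP knock-in at ZNF395 and in the parental cells of both lines. Tagged cells had been made by electroporation of a guide plasmid and a donor plasmid that placed the tag downstream of the gene, and the sources used here do not say whether they were 1 clone or a mixed population. An antibody against MYC was used in parental 786-O cells only, and the parental 786-O GFP list and the MYC list were called against the same control library. All cells were fixed with 1% formaldehyde, and the labels give a mean depth of 30 to 50 M reads per library; each group was 1 library. No difference between libraries has a replicate check, no p-value is given, and intervals are exact 95% binomial ones, which take peaks as independent and hold counting error alone. In the cell line field the samples titled A498 read 786-O, and the sample titled MYC names P300 in its target field, so both names rest on the titles.

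ZNF395 is a zinc finger transcription factor, and a GFP antibody reaches it only in cells that carry the tag. In untagged cells the same antibody has no intended target. Peaks found there are its background, which in such experiments often falls on open promoters, heavily transcribed genes, satellite repeats and stretches with extra copies in the cell line. MYC is a transcription factor that binds mostly at active promoters and enhancers. A parental list is commonly subtracted from a tagged list, and a background peak that does not recur in the tagged library subtracts nothing.

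Lost peaks were weak and narrow for their list. Their median score was 4.93 (95% interval of the median 4.76 to 5.14), against 7.30 (7.09 to 7.57) for all other parental peaks. The score is the authors' value for each peak; it was read as a −log10 value, since each list begins just above 2. Lost peaks ranged in score from 2.07 to 41.4, with quartiles of 3.67 and 6.93. Most of them (72.5%, 69.0 to 75.8) lay in the lower 50% of the parental list. The highest of them held rank 132 of 3361.

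Peaks that were kept in tagged 786-O but absent from parental A498 stood between, with a median score of 6.00. Peaks shared with parental A498 were far stronger, with medians of 15.4 where they were not kept and 21.5 where they were. The share of peaks that were lost was smaller in the upper parts of the list, with 32.0% (27.1 to 37.3) in the lowest 10% by score, 34.8% in the next, 25.0% (20.5 to 30.0) in the 10% just below the median and 1.19% (0.325 to 3.02) in the highest 10%. In the list as a whole it was 20.4%. These shares count peaks shared with parental A498, which cannot be lost by the rule and were mostly strong. In the lowest 20% by score, 225 of 673 peaks were lost and 421 were kept and absent from parental A498. In the highest 20%, 18 of 672 were lost and 154 were kept and absent from it. Part of the fall is thus fixed by the rule. The scores come from one of the lists that chose the members and are given as a description.

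Lost peaks had a median width of 160 bp (155 to 165), against 203 bp (198 to 207) for all other parental peaks. Peaks kept and absent from parental A498 had a median of 198 bp (194 to 204), and those kept and called there 242 bp (220 to 265). Narrowness was not particular to lost peaks. The 113 peaks not kept but called in parental A498 were narrower still, at 133 bp (129 to 149). The shortest width in the list, 122 bp, was held by 90 lost peaks (13.1%, 10.7 to 15.9) and by 118 other peaks (4.41%, 3.67 to 5.26). A wide peak meets other peaks more easily, so the rule itself acts on width. Among the narrowest 20% of the list 31.6% of peaks were lost, and among the widest 20% the share was 8.93%. These shares too count peaks shared with parental A498.

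**Figure D1:**
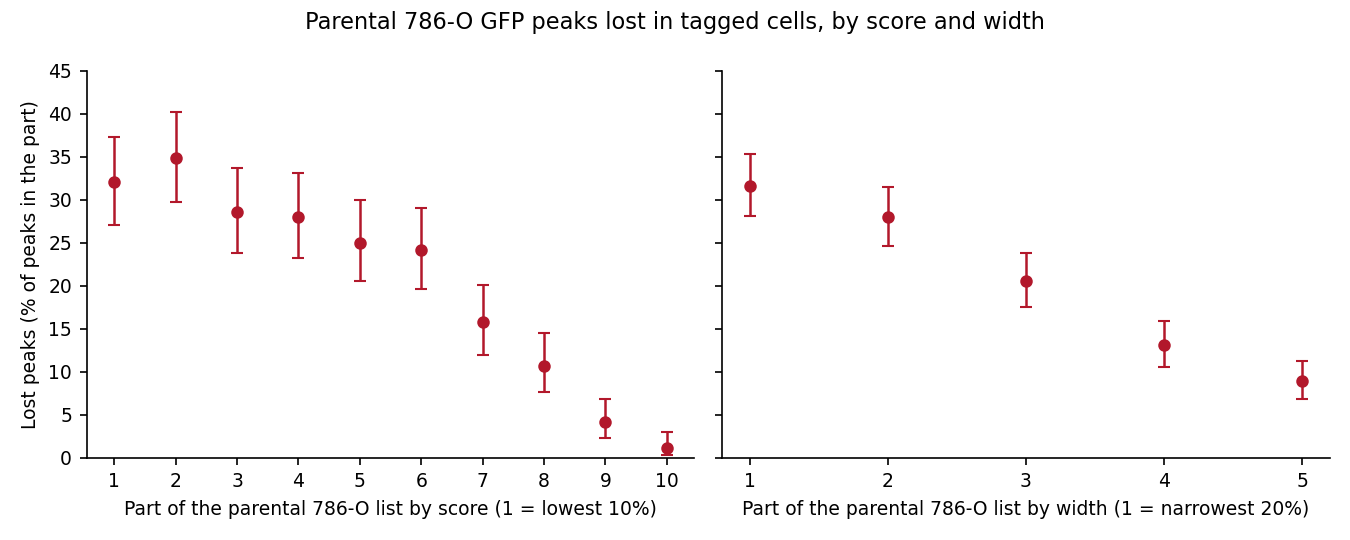
Share of parental 786-O GFP peaks that were lost (%), in 10 equal parts of the list by score (left) and 5 equal parts by width (right); points are shares and bars exact 95% binomial intervals. The share was 32.0% in the lowest and 1.19% in the highest part by score, and 31.6% in the narrowest and 8.93% in the widest part. Peaks shared with parental A498, which the rule bars from being lost, are counted in these shares.

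The highest lost peaks were not of one kind. The first, on chromosome Y at 58866001 to 58866125 (hg19, as all positions here), had a score of 41.4 and a width of 125 bp. The second was also on chromosome Y, at 13689753 to 13689884, with a score of 37.3 and a width of 132 bp. Both were narrow and lay 17441 bp and 5078 bp from the nearest tagged 786-O peak.

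The third was broad. It covered 946 bp on chromosome 8 at 128753764 to 128754709, had a score of 31.5 and lay 2665 bp from a tagged peak and 5296 bp from a MYC peak. On chromosome 22 at 20657782 to 20657936 a peak with a score of 29.5 lay over 90 kb from any tagged peak (90266 bp). On chromosome 21 at 46785625 to 46785953 the lost peak had a score of 21.5, and it overlapped weak peaks of both unused lists, with rank 19101 of 20199 for MYC and rank 6172 of 7718 in tagged A498.

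The rest of the 10 highest were on chromosome 2 at 20386216 (score 21.0), chromosome Y at 58833949 (score 19.3), chromosome 11 at 36310822 (score 17.9), chromosome 5 at 137802839 (score 16.2) and chromosome 9 at 100149321 (score 16.2). Chromosome Y thus held 3 of the 10, although it held only 7 of all 687 lost peaks. Of the 10, 1 overlapped a MYC peak, that on chromosome 21, and 2 overlapped a tagged A498 peak. The 5 highest without a MYC peak were thus the leading pair on chromosome Y and those on chromosomes 8, 22 and 2. The one on chromosome 5 lay 86 bp from a tagged 786-O peak of low score (2.92), and the others were 963 bp or more from any.

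The widest lost peak was on chromosome 1 at 68154232 to 68155874, with a width of 1643 bp and a score of 14.4. The next were one on chromosome 17 at 62494132 to 62495648 (1517 bp, score 8.09) and another on chromosome 21 at 28207341 to 28208301 (961 bp, score 11.9). After the peak on chromosome 8 named above came another on chromosome 21, at 28942370 to 28943307 (938 bp, score 9.66). None of these 5 overlapped a MYC or a tagged A498 peak. All but the last had a tagged 786-O peak within 10 kb, at 372 to 8145 bp.

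MYC peaks were less common at lost sites than in the parental list as a whole. Of the 687 lost peaks, 154 (22.4%, 19.3 to 25.7) overlapped a MYC peak, while in the parental list as a whole the share was 60.5%. Of the 1947 peaks that were kept in tagged 786-O and absent from parental A498, 1692 (86.9%, 85.3 to 88.4) did so. Parental peaks shared with parental A498 also had fewer MYC peaks: 29.3% (25.7 to 33.1) of those kept and 5.31% (1.97 to 11.2) of those not kept. Low MYC overlap was therefore not seen in lost peaks alone. Kept peaks had by choice been called in 2 GFP libraries of 786-O cells, and lost peaks in 1. No share at MYC was measured for sites outside the parental list.

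The shares of lost and kept peaks at MYC also differed within parts of the list of like score. Kept peaks overlap the tagged 786-O list by choice, and the MYC share of that list is not given here. Parts by score or width do not take account of that choice. In the lowest 20% by score the share at MYC was 19.6% (14.6 to 25.3) of 225 lost peaks, against 87.4% (83.9 to 90.4) of 421 kept ones, with median scores of 3.26 and 3.21. In the middle 20% it was 24.8% of lost and 89.4% of kept peaks, and in the highest 20% it was 2 of 18 lost peaks (11.1%, 1.38 to 34.7) and 84.4% of kept ones. The shares differed within parts of like width too. Among the narrowest 20% the shares were 17.4% of lost and 80.9% of kept peaks, and among the widest 20% they were 20.0% of lost and 91.5% of kept peaks.

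How a lost peak is defined did matter. Under a 50% reciprocal overlap, which counts many overlapping peaks of unequal width as lost, 68.2% of 2393 lost and 70.9% of 392 kept peaks had a MYC peak, and with midpoints within 200 bp the shares were 54.2% and 84.3%. These rules, like the next, were applied to the tagged 786-O and the parental A498 lists alike. With any peak of either list closer than 1 kb counted as shared, the shares were 17.8% of 555 lost and 85.0% of 2014 kept peaks.

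**Figure D2:**
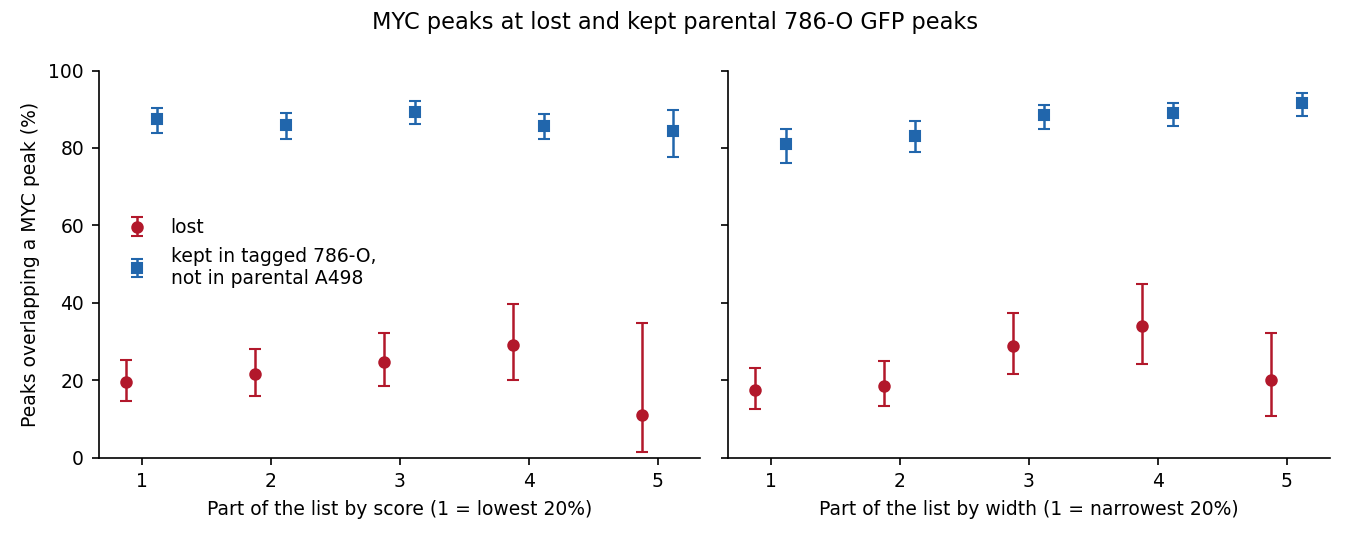
Share of peaks overlapping a MYC peak (%) among lost peaks (circles) and peaks kept in tagged 786-O and absent from parental A498 (squares), in 5 equal parts of the parental list by score (left) and width (right), with exact 95% binomial intervals. Lost peaks lie between 11.1% and 34.1%, and kept peaks between 80.9% and 91.5%.

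Lost peaks with a MYC peak were about as strong as those without. Their median score was 5.27 in the 154 with MYC and 4.87 in the 533 without, and their median widths were 176 and 157 bp. The MYC peaks they met were ordinary for the MYC list: 152 MYC peaks with a median score of 15.5, while all 20199 MYC peaks had a median of 16.2. MYC peaks at lost sites were 449 bp wide in the median, against 792 bp for the 1601 at kept sites absent from parental A498, whose median score was 36.1. Of the 154 lost peaks, 91 (59.1%) lay wholly inside their MYC peak.

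By the sum of their rank in the parental list and the rank of their MYC peak, the leading lost peaks were a 130 bp peak on chromosome 10 at 25305574 (score 10.3) and a 133 bp peak on chromosome 2 at 54857393 (score 7.02). Their MYC peaks held ranks 113 and 98 of 20199. The tagged list came within 19 bp of the site on chromosome 2, whereas the site on chromosome 10 was 43377 bp from it. Next came peaks on chromosome 1 at 185285455 (score 10.9, MYC rank 1438), chromosome 10 at 74033139 (score 12.5, MYC rank 1954) and chromosome 22 at 36724932 (score 7.06, MYC rank 1152), which lay 43, 107 and 198 bp from tagged peaks.

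Tagged A498 peaks were rarer still at lost sites. Only 16 of the 687 (2.33%, 1.34 to 3.75) overlapped one, against 39.0% (36.8 to 41.2) of the kept peaks absent from parental A498 and 36.0% of the whole parental list. In the lowest 20% by score the shares were 1.33% of lost and 28.5% of kept peaks, and in the 20% next to the highest they were 3.37% of lost and 47.1% of kept peaks. The rule did not use the tagged A498 list, but kept peaks overlap by choice a list from cells with the same tag. The rule also removed peaks found in parental A498, which the share of the whole list includes. Of those, 66.0% (62.1 to 69.7) of the kept and 25.7% (17.9 to 34.7) of the not kept overlapped a tagged A498 peak. The shares are thus a description.

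The strongest tagged A498 partner stood at a weak lost peak. On chromosome 19 at 54372215 to 54372396 the lost peak had a score of 3.37, while the tagged A498 peak there held rank 122 of 7718 and the MYC peak rank 1989. A tagged 786-O peak with a score of 18.1 lay 142 bp from that lost peak. On chromosome 1 at 159893888 to 159894027 the lost peak (score 7.72) met the tagged A498 peak of rank 238 and lay 92 bp from a tagged 786-O peak with a score of 81.6. By score of the lost peak, the leading sites with a tagged A498 peak were those on chromosomes 21 and 5 already named, then chromosome 6 at 132268022 (score 9.97, A498 rank 727), chromosome 6 at 44221839 (score 8.09, A498 rank 2505) and chromosome 17 at 26662910 (score 7.81, A498 rank 2726). Those 16 partners had a median rank of 2578. Of the 16 sites, 9 also had a MYC peak, and 526 of the 687 lost peaks (76.6%, 73.2 to 79.7) had no peak in any other list.

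The distance from a lost peak to the tagged 786-O list varied widely. With 20034 tagged peaks some closeness arises at any site, and no background set of sites was measured. The other parental peaks cannot serve as one, since 96.1% of them lay under 200 bp, most by choice. The median distance to the nearest tagged 786-O peak was 13954 bp (10518 to 19726). It was under 200 bp for 52 lost peaks (7.57%), under 1 kb for 125 (18.2%), under 10 kb for 306 (44.5%) and over 100 kb for 145 (21.1%). MYC peaks were at a median distance of 9189 bp and tagged A498 peaks at 94599 bp. These medians are not like for like. The MYC list holds 20199 peaks, the tagged A498 list 7718 and the parental A498 list 1563, and a longer list tends to lie nearer. Overlaps count as 0 bp, and the rule bars them for the tagged 786-O and parental A498 lists. Parental A498 peaks were 1143358 bp away in the median, close to the 932638 bp measured from the kept peaks that are absent from that list.

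Among lost peaks, MYC overlap went with distance to the nearest tagged 786-O peak. That distance comes from a list that chose the members. No other set of sites was measured at like distances, so the trend is a description and not a trait of lost peaks. A MYC peak lay at 26 of the 52 lost peaks within 200 bp of a tagged peak (50.0%, 35.8 to 64.2), at 39.7% of those from 200 bp to 1 kb, at 23.8% from 1 to 10 kb, at 19.5% from 10 to 100 kb and at 10 of 145 beyond 100 kb (6.90%, 3.36 to 12.3). Over the same distances, from near to far, the lost peaks had median scores of 6.00, 5.14, 4.97, 5.00 and 4.76. Of the 125 lost peaks within 1 kb of a tagged peak, 43 (34.4%, 26.1 to 43.4) had as their nearest tagged peak one that itself overlapped a parental peak. Among all tagged peaks 12.2% overlapped one. These shares are not like for like. The first counts lost peaks, some with the same nearest tagged peak, and its tagged peaks were picked for lying near a parental peak. A kept parental peak lay within 1 kb of 47 lost peaks (6.84%) and within 10 kb of 142 (20.7%), with no background share measured.

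The border of the rule was thin. Just inside it were lost peaks on chromosome 19 at 50144992 (score 3.67) and 52772591 (score 3.34), each 4 bp from a tagged peak, and on chromosome 12 at 10366757 (score 3.63), 8 bp away. Just outside it were parental peaks on chromosome 8 at 107072577 (score 6.19), which touched a tagged peak by 1 bp, and on chromosome 13 at 100224116 (score 6.71) and chromosome 17 at 57921597 (score 4.43), with overlaps of 3 bp. In all, 3 lost peaks were closer than 10 bp to a tagged peak, and 7 kept peaks overlapped one by less than 10 bp. At the other end, a lost peak on chromosome 15 at 20353345 was 2479637 bp from any tagged peak, one on chromosome 21 at 21609588 was 2417476 bp away and one on chromosome 10 at 108634318 was 2340251 bp away.

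**Figure D3:**
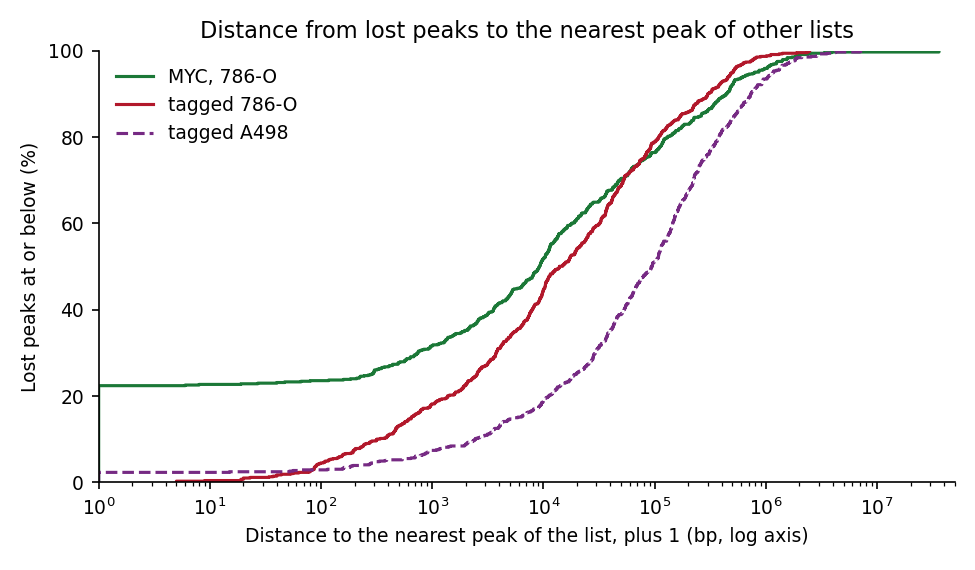
Cumulative share of the 687 lost peaks (%) by distance to the nearest peak of the MYC, tagged 786-O and tagged A498 lists, plus 1 bp, on a log axis. The MYC line starts at 22.4% and the tagged A498 line at 2.33% because overlapping peaks have a distance of 0, and the tagged 786-O line reaches 44.5% by 10 kb.

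Lost peaks were spread over every chromosome from 1 to 22, X and Y, and none of the 25 parental peaks on unplaced contigs and the mitochondrial genome was lost. Chromosome 1 held the most, 75. The share of a chromosome's parental peaks that were lost was highest on chromosome 3, with 59 of 186 (31.7%, 25.1 to 38.9), and lowest on chromosome 16, with 11 of 140 (7.86%, 3.99 to 13.6). Both are the extremes of 24 chromosomes and were picked for that. Chromosome 3 held 8.59% of lost peaks, 4.75% of the other parental peaks, 5.32% of tagged 786-O peaks and 5.50% of MYC peaks.

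Chromosomes 5, 8, 7 and 9 followed among those with over 100 parental peaks, at 28.4%, 26.7%, 26.4% and 26.2%. At the low end chromosome 4 had 11.0% (6.16 to 17.8) and chromosome 17 had 11.7% (7.41 to 17.4). Peaks shared with parental A498 cannot be lost by the rule, and they are unevenly spread. Without them 687 of 2634 parental peaks (26.1%, 24.4 to 27.8) were lost. Against that share, chromosome 3 at 34.3% (27.2 to 41.9) and chromosome Y at 7 of 12 (58.3%, 27.7 to 84.8) had intervals above it, and chromosomes 16 at 13.4% (6.89 to 22.7) and 17 at 16.5% (10.5 to 24.2) below it. The intervals of all other chromosomes held it, among them chromosome 4 at 20.6% (11.7 to 32.1) and chromosome 21 at 36.4% (20.4 to 54.9). The intervals take peaks as independent, yet on chromosome 3 one bin of 1 Mb held 9 lost peaks and another held 5. The share of chromosome 3 without those bins was not computed. The lost peaks of chromosome Y had a median score of 10.5.

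**Figure D4:**
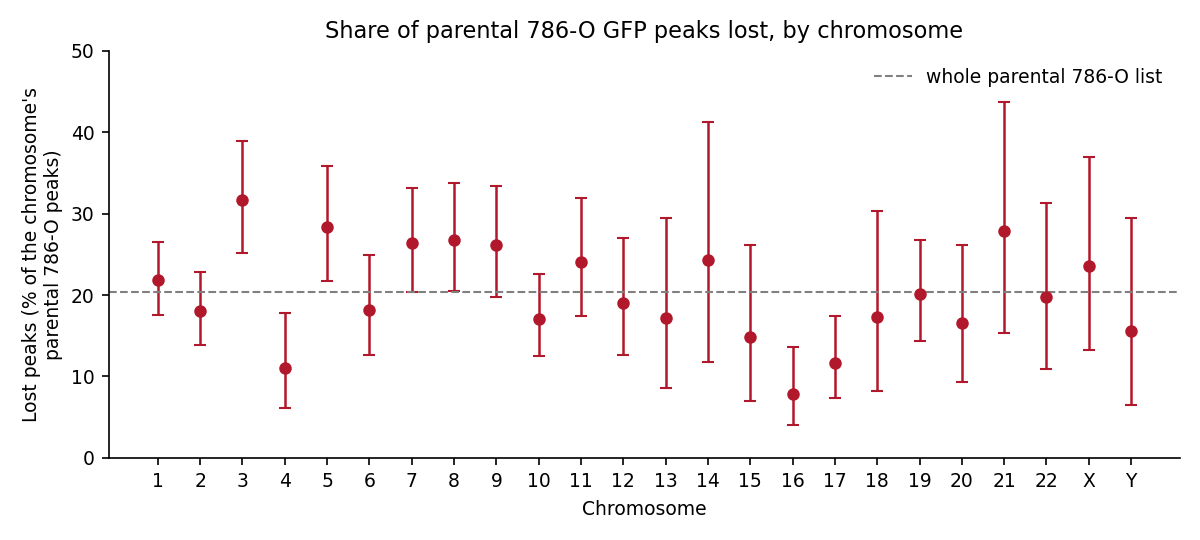
Share of each chromosome's parental 786-O GFP peaks that were lost (%), with exact 95% binomial intervals; the dashed line is the 20.4% of the whole list. Chromosomes 3 (31.7%), 5 (28.4%) and 8 (26.7%) have intervals above the line, and those of chromosomes 4 (11.0%), 16 (7.86%) and 17 (11.7%) lie below it.

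A part of the lost peaks came in groups. Another lost peak was closer than 10 kb for 110 of them (16.0%, 13.3 to 19.0), closer than 100 kb for 164 (23.9%, 20.7 to 27.2) and closer than 1 Mb for 389 (56.6%). Counting parental peaks of any kind, lost peaks were no more crowded than the list: 27.5% (24.2 to 31.0) had another parental peak within 10 kb, against 25.3% of kept peaks absent from parental A498 and 34.9% of all parental peaks. Within 100 kb the share was 47.5% (43.7 to 51.3) of lost peaks, 50.2% (47.9 to 52.4) of kept peaks absent from parental A498 and 56.4% of all. The class of the nearest neighbour differed, though the rule acts on it. For the 189 lost peaks with a parental peak within 10 kb, the nearest one was itself lost in 95 cases (50.3%, 42.9 to 57.6). For the 493 such kept peaks absent from parental A498 it was lost in 15.8% (12.7 to 19.3), and for all 985 such other parental peaks in 9.44%. Neighbours a short way apart tend to share the presence or absence of a tagged peak, which sets the class. Peaks that are each other's nearest count in both directions, so the intervals are too narrow. These shares are a description.

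Of 514 bins of 1 Mb with a lost peak, 399 had just 1. Only 4 bins held 5 or more, with 25 lost peaks in all (3.64%), and 10 further bins tied on 4. The fullest, on chromosome 3 from 172 to 173 Mb, had 9 lost and 4 kept parental peaks, 9 tagged 786-O peaks and 7 MYC peaks. Chromosome 7 from 2 to 3 Mb had 6 lost and 3 kept peaks amid 31 tagged and 32 MYC peaks. Chromosome 3 from 101 to 102 Mb and chromosome 8 from 23 to 24 Mb had 5 lost peaks each, with 3 and 1 kept.

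On chromosome 3 the 9 lost peaks formed 3 close groups. A pair began at 172221719, with scores of 7.40 and 3.79, and the nearer of the 2 lay 90 bp from a tagged peak. Next came 3 peaks from 172238486 to 172240872 with scores of 3.16 to 4.38, of which 2 overlapped MYC peaks. The last group, 4 peaks from 172323077 to 172324972 with scores of 3.17 to 9.66, had no peak of any other list within 10 kb and was 51898 bp or more from the tagged list.

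Short runs of this kind, with 3 or more lost peaks at gaps under 10 kb, were looked for after the clustering had been seen. There were 12, with 40 lost peaks (5.82%) and spans of 1684 to 5750 bp. In 10 of the 12 no tagged 786-O peak lay inside the run, and in 8 no MYC peak did. A tagged peak was nearby in most, since only 3 runs had none within 10 kb. On chromosome 6 from 132268022 to 132270355, 4 lost peaks with scores of 4.46 to 9.97 stood beside a tagged peak with a score of 50.9, at distances of 1345 to 3235 bp, and the first of them overlapped a tagged A498 peak. On chromosome 10 from 60275036 to 60278301, 4 lost peaks (5.85 to 9.26) surrounded 1 tagged peak with a score of 6.67. The last of them lay 239 bp from another tagged peak (score 5.25), and 3 kept parental peaks lay within 10 kb of the run. On chromosome 7 from 2578319 to 2581409, 4 lost peaks (2.29 to 6.09) began 3149 bp from the nearest tagged peak.

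**Figure D5:**
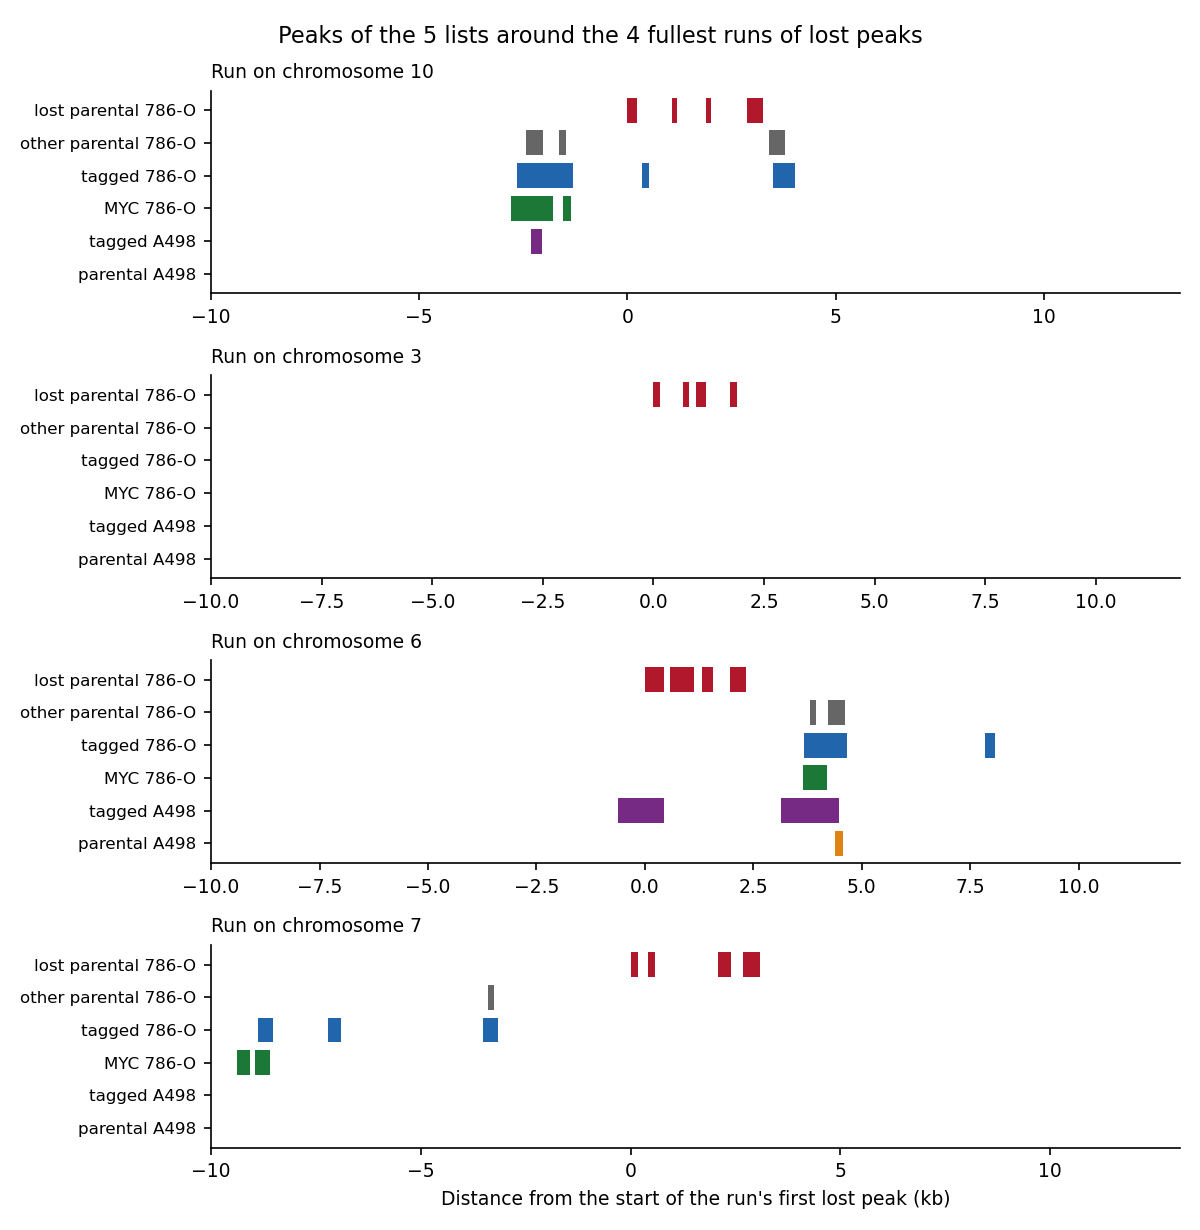
Peaks of the 5 lists around the 4 runs with 4 lost peaks each, plotted by distance (kb) from the start of the run's first lost peak, with the parental 786-O list split into lost and other peaks; boxes are drawn to scale. The run on chromosome 3 has no peak of any other list within 10 kb, and the other 3 have tagged 786-O peaks within 10 kb.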

How the data were processed

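Each of the 5 deposited peak lists (1 GFP or MYC library each; 9 samples in all, 4 of them inputs with no list) was read as deposited. The submitters' processing notes name BWA, MACS2 and the hg19 build, without versions or settings. Peak names in the deposited files state merged, sorted alignments processed by mapping quality and 1 control library per list. The deposited score was read as a −log10 value, because each list begins just above 2, as a threshold of 0.01 gives; the sources used here do not say if it belongs to a p or to a q. Scores were compared within a list only. The depth behind single peaks is unknown.

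Overlap meant 1 bp or more in common, and distances are bases between nearest edges. Starts are printed counted from 1. Shares carry exact (Clopper-Pearson) intervals and medians order-statistic intervals, at 95%. Computation was in Python 3.11.15 with scipy 1.17.1, pandas 2.3.3, numpy 2.4.6 and matplotlib 3.10.9; overlap and distance rules were tested on simulated data and against bedtools 2.31.1. Named regions are the 10 highest lost peaks, 5 each for MYC partners, no MYC, tagged A498 partners and width, 3 at each end of the distances, 3 just outside the rule, and the fullest bins; the A498 partner of best rank, the second A498 site and the runs were chosen after their values were seen. The lost peaks, lists and comparisons were chosen with earlier results of these data known. Genes, promoters, repeats and sequence need hg19 references and were not analysed here.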

Additional observations from a re-analysis of the deposited data

How the results depend on the processing

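Of 54 values under alternatives, 25 stayed within the interval of the reported value and 29 left it. Leaving out contigs and the mitochondrial genome is not counted, since no lost peak lay there and nothing could change. The lost share of the parental list (20.4%) was 71.2% with 50% reciprocal overlap, 40.3% with midpoints within 200 bp, 16.5% with gaps under 1 kb to either list also shared, 54.8% with the tagged list limited to the parental list's length, 32.7% with its upper 50%, 23.8% without removal of parental A498 peaks and 11.2% in the upper 50% of the parental list. Lost peaks at MYC (22.4%) were 10.8% with the upper 50% of MYC peaks, 5.82% with reciprocal overlap and 17.0% by midpoints, and 17.6% for those 1 kb or more from tagged peaks. With lost peaks themselves redefined, chosen after seeing the data, the MYC share was 68.2% (reciprocal), 54.2% (midpoints) and 17.8% (1 kb). At tagged A498 peaks the 2.33% became 0.728% with reciprocal overlap and 1.25% beyond 1 kb. The median score (4.93) was 6.93 in the upper 50%, by construction, 5.69 with reciprocal overlap and 5.44 by midpoints, and the median width (160 bp) was 182 bp under both rules. The median distance (13954 bp) was 28857 bp for lost peaks beyond 1 kb, 0 bp with reciprocal overlap, 88.0 bp by midpoints and 29936 bp with the 1 kb rule. Those moves follow from the rules, which count overlapping or nearby peaks differently. The share within 100 kb of another lost peak (23.9%) was 16.0% within 10 kb and 56.6% within 1 Mb. Chromosome 3 lost 85.5% with reciprocal overlap and 56.5% by midpoints, in place of 31.7%; these were also chosen after seeing the data. For the remaining moves the cause was not tested. Removing dense bins or the widest peaks moved none of the values computed without them out of its interval, nor did leaving out chromosome Y for the share at MYC. The share at promoters was not run. No paired analysis was possible because each group is 1 library.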

Other observations

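The remaining 8 runs of lost peaks held 3 each. On chromosome X from 46185047 to 46187234 the lost peaks had scores of 3.17 to 7.45, and 2 overlapped weak MYC peaks (ranks 20137 and 17115 of 20199), while the nearest tagged 786-O peak was 217395 bp away. On chromosome 22 from 36724555 to 36728957 all 3 overlapped MYC peaks, and 3 tagged peaks and 1 kept parental peak lay among them. On chromosome 11 from 18429180 to 18430863 there was neither a tagged nor a MYC peak within 10 kb. On chromosome 1 the widest lost peak of all closed a run from 68153117 to 68155874.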
